A study of Vitis vinifera with 11 samples.

Results

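A set of 27 grapevine (Vitis vinifera) genes had their highest inflorescence transcript level at the second node below the shoot tip, in each of 2 dwarf vine lines. They were selected on the measured values: the RPKM (reads on a gene, divided by its length in kilobases and by the mapped reads in units of 1e6) at node 2 had to be at least 5, and at least 1.5 times both the node 1 and the node 3 value, within each line separately. The set holds 27 of the 25771 genes measured (0.105%). The rule was met by 213 genes in line 06C021V0046 (0.827%) and by 82 genes in line 06C008V0003 (0.318%), so the shared genes are 12.7% of the first list and 32.9% of the second. Because the rule used every inflorescence value, the rise to node 2 and the drop after it are described here and not tested.

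Grapevine shoots carry inflorescences or tendrils opposite the leaves, and both arise from the same kind of uncommitted primordium. Picovines are dwarf vines that flower along the shoot in place of making tendrils, so that inflorescences of successive ages stand at successive nodes, the youngest nearest the tip. Within a young grapevine inflorescence, branches form first, and floral organs and then pollen and ovules follow. A transcript that is high at one node and lower on both sides of it is therefore one whose level differs between inflorescences of neighbouring ages.

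Messenger RNA had been sequenced in 11 single-end libraries. Inflorescences of nodes 1, 2 and 3 came from the picovine lines 06C021V0046 and 06C008V0003, with 1 library for each node and line, whereas Pinot Meunier L2, the control, supplied the tendrils of nodes 1, 2 and 3, with 1 library for each node. Leaves had been pooled into 1 library of 06C021V0046 and 1 of Pinot Meunier L2, and all plants had grown under the same controlled long days. The labels name no plant age and no number of plants for a library. The collection protocol writes the first line with the prefix 04C, where the sample labels have 06C, and names no inflorescence for Pinot Meunier L2, whose leaf pool the labels place opposite inflorescences. The replicates of an inflorescence node are different lines, so the spread between them holds line as well as plant. Organ and line cannot be told apart between inflorescences and tendrils, since every inflorescence is from a picovine and every tendril from Pinot Meunier L2.

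Depth, worked back from the RPKM steps, was 11.36 to 14.55 M (1e6) reads in the inflorescence libraries and 7.36 to 15.18 M in the others, with the tendril library of node 2 the shallowest. Between 17064 and 18387 genes reached 1 RPKM in a library. The floral organ gene AG stood at 86.2 to 380 RPKM in inflorescences and at no more than 0.119 RPKM in tendrils. In the leaf pools AG had 3.85 and 1.42 RPKM. AP3, a petal and stamen identity gene, had 61.1 to 108 RPKM in inflorescences and no more than 0.114 RPKM in tendrils and leaves. The 16 measured floral and flowering genes summed to 1761 and 1972 RPKM at node 2 in the lines (06C021V0046 first), between 1599 and 1571 at node 1 and 1979 and 2650 at node 3. They summed to 167 and 179 RPKM in leaf pools and 276 to 480 RPKM in tendrils. Not all of them were highest in inflorescences. Among those that were not, AP1 had 118 to 169 RPKM in inflorescences and 119 to 298 RPKM in tendrils. VFUL-L had 23.3 to 42.3 RPKM in inflorescences and 68.5 to 77.0 RPKM in tendrils, and MADS8 had 6.71 to 16.3 RPKM in inflorescences and 125 and 113 RPKM in leaf pools. The 3 leaf and photosynthesis genes with a name (PSBP1, PSBP2 and NDHM) summed to 215 and 233 RPKM at node 2, 376 and 202 at node 1, 153 and 155 at node 3, 447 and 711 in leaf pools and 222 to 911 in tendrils, so their sum does not mark leaves apart from tendrils. PSBP1, the most abundant, had 337 and 637 RPKM in leaf pools and 175 to 868 RPKM in tendrils. The other genes were higher in leaf pools without overlap. NDHM had 36.3 and 27.5 RPKM there against 9.10 to 10.8 RPKM in tendrils, and PSBP2 had 73.3 and 46.3 RPKM against 30.8 to 36.3 RPKM.

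Of the 27 genes, 22 are in the RefSeq gene table of the assembly ASM3070453v1, and the table annotates all 22 as protein coding. MYB60, a MYB transcription factor whose grapevine promoter is known for its activity in the guard cells of stomata, is the only one with a name, against 262 named genes among the 18647 measured genes in the table. The others are given by their locus symbol, or, for the 5 genes not in the table, by their gene number. No role is given to these 26 genes, since the files and the table annotate none.

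The levels at node 2 spanned more than an order of magnitude. The mean of the lines at node 2 ran from 5.53 RPKM in gene 100259108 to 150.3 RPKM in gene 100259428, with a median of 17.01 RPKM. In 06C021V0046, the median node 2 level was 1.80 times that of node 1 and 2.36 times that of node 3. In 06C008V0003 the medians were 2.06 and 1.78. Over the 13443 genes with at least 5 RPKM at node 2 in both lines and reads in every inflorescence library, the medians were 1.09 and 1.19 in 06C021V0046 and 1.01 and 1.03 in 06C008V0003. The node 2 library of 06C021V0046 thus stood above its neighbours in the median of these 13443 genes, by 0.12 and 0.25 on the log2 scale, and the rule was met by more genes in that line. These genes were themselves filtered on their node 2 level. For each of the 27 genes, all 4 ratios of node 2 to its neighbours stayed above 1 at the lower bound of the 95% counting interval, which covers counting error only. The rule had required these same ratios to be at least 1.5, so this outcome was largely set by the selection and supports nothing by itself.

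A gene chosen in one line can be looked at in the other, of whose values only a minimum of 5 RPKM at node 2 was then required. Of the 198 genes that met the rule in 06C021V0046 and had at least 5 RPKM at node 2 in both lines, 150 (75.8%) were highest at node 2 in 06C008V0003, where 20.5% of the 13449 genes at that level were. In the other direction, 60 of 69 (87%) were highest at node 2 in 06C021V0046, against 31.8% of genes at that level. Both counts include the 27 genes of the set, which by the rule are highest at node 2 in both lines, so the shares are a description. The reverse pattern, with node 1 and node 3 both at least 5 RPKM and at least 1.5 times node 2, held in both lines for 13 genes.

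The rule's limits fall within a continuous range. The genes just inside it had smallest ratios of 1.5 (LOC100256431), 1.52 (LOC100264925) and 1.52 (gene 100259428), and the genes just outside had 1.49 (LOC100257867), 1.49 (LOC100252197) and 1.48 (LOC100264696). LOC100251233, gene 100246563 and LOC100266958 met the ratios but lay just under 5 RPKM in 1 line, at 4.80, 4.63 and 4.57 RPKM. With a ratio of 2 in place of 1.5, LOC100255946, LOC100263456 and gene 100246197 were left. When the libraries were put on a common scale, 16 genes met the rule after median-ratio scaling, all of them among the 27, and 16 after quantile normalization, 13 of them among the 27. By both scalings 12 of the 27 met it, and 10 met it by neither.

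**Figure D1:**
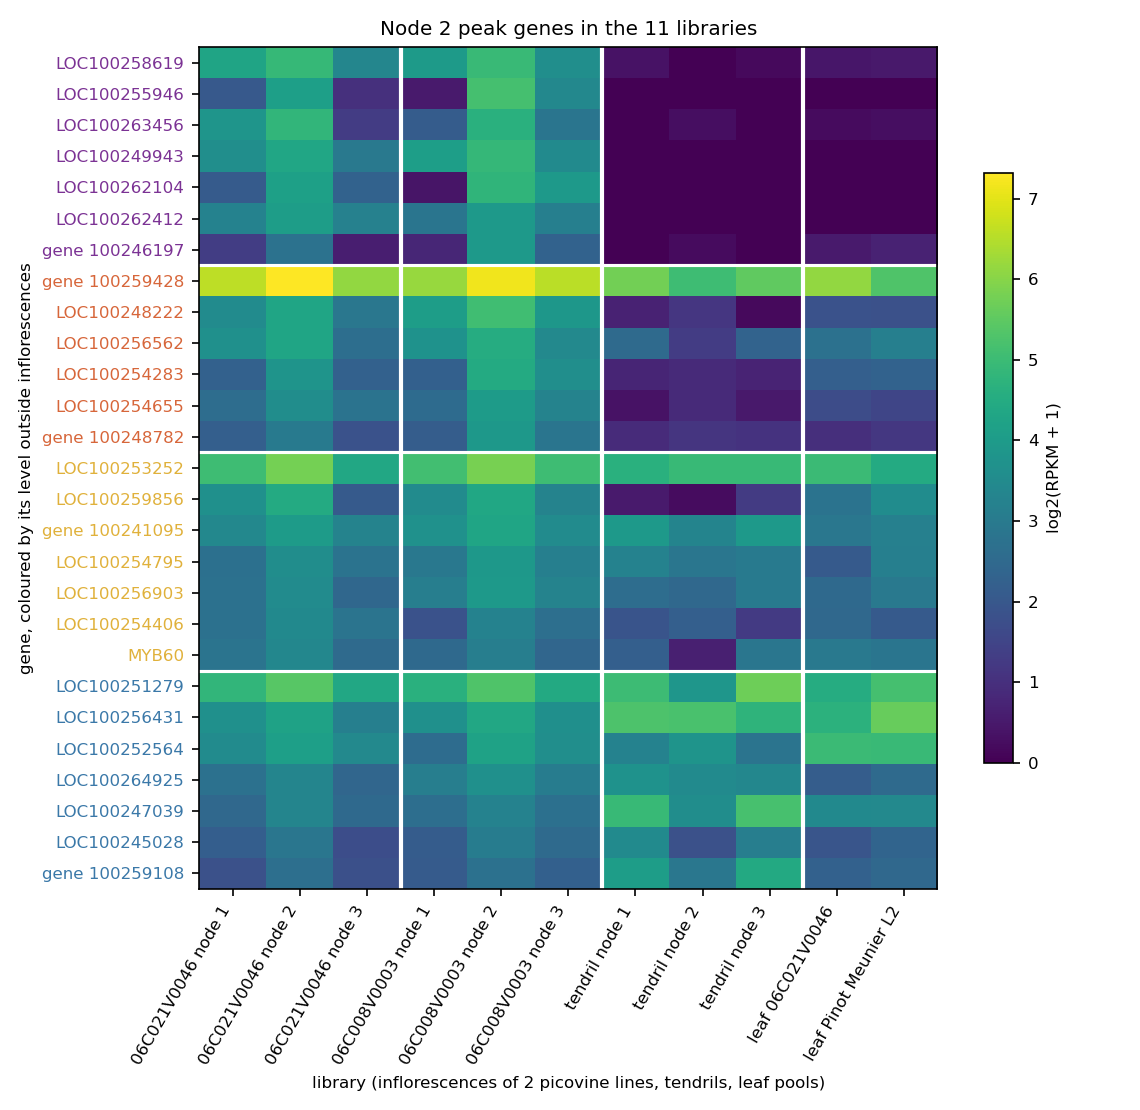
Transcript level of the 27 genes (rows) in the 11 libraries (columns) as log2(RPKM + 1), with white lines between organs or lines and between 4 groups of genes set by their level outside inflorescences, beyond the first group relative to node 2. The upper 7 rows are dark, under 1 RPKM, in every tendril and leaf column, and the lower 7 rows hold a tendril or leaf value as high as node 2.

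The 27 genes fall into 4 groups by their level in tendrils and leaves, values that the rule did not use. Only the first group is set by those values alone. The others set them against the node 2 values, which the rule did use. Under 1 RPKM in all 5 tendril and leaf libraries were 7 genes (25.9%), where 0.476% of the 13449 genes of at least 5 RPKM at node 2 in both lines were that low. Node 2 values of both lines at least 2 times every tendril and leaf value were found in 13 of 27 genes (48.1%), these 7 included, against 2.33% of those genes. The 27 had been chosen for a high node 2 value relative to its neighbours, so this comparison rests in part on the rule's own values and is a description. In 20 of 27 the node 2 values were above every tendril and leaf value, and in the other 7 a tendril or leaf value was as high or higher. The share over all genes was not worked out for this count, so it does not set the 27 apart. In these libraries of whole organs, fewer cells that hold a transcript and less of it in each cell cannot be told apart. The background here is all genes at that level, and gene sets that peak at another inflorescence node were not compared.

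The first group of 7 genes was close to absent outside inflorescences. No read of LOC100255946, LOC100249943, LOC100262104 or LOC100262412 was counted in any tendril or leaf library. Against a floor of 3 reads over those 5 libraries together, the node 2 level, with the reads of both lines pooled over their depth, was at least 1174-fold higher for LOC100249943 and at least 957-fold higher for LOC100262104. On the same pooled reads it was at least 759-fold higher for LOC100255946 and at least 281-fold higher for LOC100262412. LOC100263456 had 4 reads there, a pooled ratio of 238 (95% counting interval 92.2 to 877). LOC100258619 had 21 reads, a ratio of 118 (76.7 to 191), and gene 100246197 had 25 reads, a ratio of 39.4 (26.3 to 61.6).

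LOC100255946 had the steepest peak of the set, by the smaller of its ratios. Its values at nodes 1, 2 and 3 were 3.14, 16.5 and 1.00 RPKM in 06C021V0046, and 0.449, 34.8 and 9.66 RPKM in 06C008V0003. Node 2 was highest in both lines, but the low neighbour was node 3 in the first line and node 1 in the second, where 10 reads were counted. The node 2 level of 06C008V0003 was 77.5 times its node 1 level (41.9 to 162) and 3.60 times its node 3 level. In 06C021V0046 these ratios were 5.25 and 16.5.

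LOC100262104 had a similar course in 06C008V0003. Its values were 3.27, 16.8 and 3.96 RPKM in 06C021V0046, with nearly level sides, and 0.328, 26.5 and 14.1 RPKM in 06C008V0003, where node 1 rested on 11 reads. Its node 2 level was 80.8 times that of node 1 in 06C008V0003 (44.9 to 162) and 5.14 times in 06C021V0046.

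LOC100263456 had 13.2, 27.4 and 1.48 RPKM along the nodes of 06C021V0046, then 3.34, 23.8 and 6.12 RPKM along those of 06C008V0003. The drop after node 2 in 06C021V0046, by a ratio of 18.5, was the largest of the set in that line. Gene 100246197 had 1.51, 5.75 and 0.534 RPKM, then 0.728, 14.2 and 3.96 RPKM. In both of these genes node 1 was the higher side in 06C021V0046 and node 3 in 06C008V0003.

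LOC100258619 and LOC100249943 had shallower peaks with node 1 above node 3 in both lines. LOC100258619 had 18.3, 28.9 and 9.19 RPKM in 06C021V0046 and 14.7, 30.4 and 11.1 RPKM in 06C008V0003, the highest node 2 mean of the group at 29.6 ± 1.04 (SD, n = 2). LOC100249943 had 11.3, 18.9 and 6.76 RPKM, then 16.2, 28.5 and 10.2 RPKM. LOC100262412 had 8.39, 15.8 and 8.24 RPKM, then 6.13, 14.1 and 7.94 RPKM, with sides that were almost level in the first line. Profiles were also correlated over the 11 libraries on log2(RPKM + 1), as a description, and these genes share 5 values at or near 0. On that scale LOC100258619 and LOC100249943 had the most similar profiles of all pairs in the set (Pearson r = 0.993). LOC100255946 correlated at 0.976 with gene 100246197 and at 0.973 with LOC100262104 on the same scale.

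**Figure D2:**
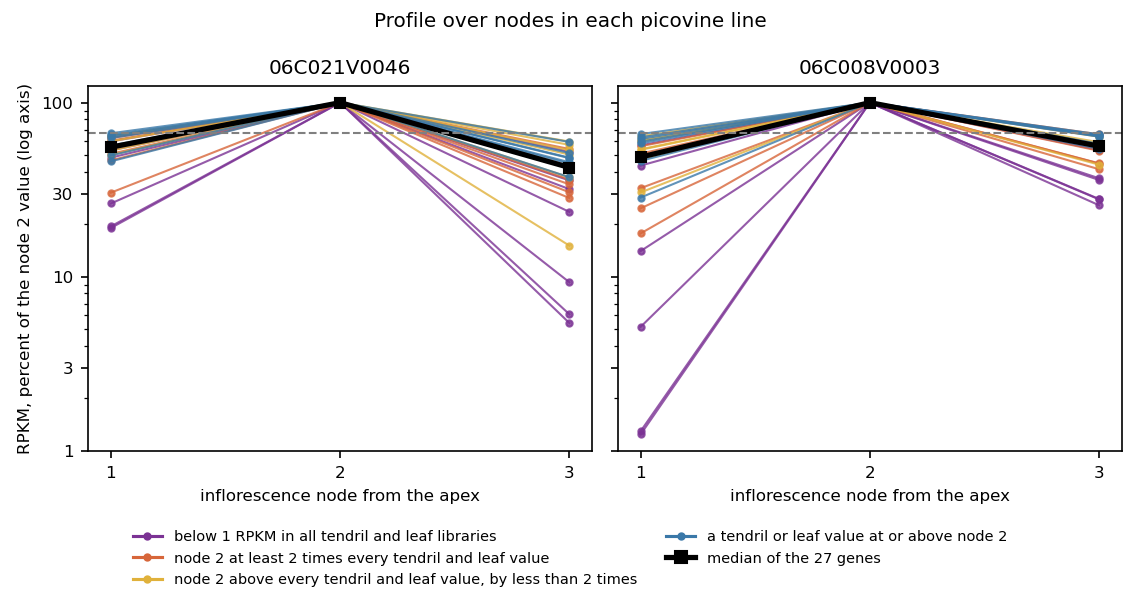
RPKM at inflorescence nodes 1, 2 and 3 as a percent of the node 2 value of the same line (log axis), 1 line per gene, coloured by the level outside inflorescences, with the median of the 27 genes in black and a dashed line at the rule's limit. The deepest lines drop on the node 3 side in 06C021V0046 and on the node 1 side in 06C008V0003, and most of them belong to genes under 1 RPKM in tendrils and leaves.

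The shape of the peak differed between the lines across the set. The median of node 3 over node 1 was 0.741 in 06C021V0046 and 1.13 in 06C008V0003, against 0.921 and 0.989 over the 13443 genes. The ratio was larger in 06C008V0003 for 26 of the 27 genes (96.3%), gene 100241095 being the exception, where 61.3% of genes had it larger. After quantile normalization it was larger for 24 of the 27 (54.4% of genes), and after median-ratio scaling also for 24 (50.8%). With 1 library for each node and line, and the same values used by the rule, this difference was not tested.

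Differences of at least 2 times between the lines were found in part of the set. At node 1, 6 of the 27 genes were at least 2 times higher in 06C021V0046 (3.94% of genes): LOC100252564, LOC100254406, LOC100255946, LOC100262104, LOC100263456 and gene 100246197. At node 3, 9 were at least 2 times higher in 06C008V0003 (8.33% of genes), and LOC100255946, LOC100262104, LOC100263456 and gene 100246197 were among them too. None was 2 times different in the opposite direction at either node. At node 2 the lines were closer, with 06C021V0046 over 06C008V0003 between 0.406 and 1.23 and a median of 0.851. This was not particular to the set. The median absolute difference between the lines on log2(RPKM + 1) was 0.301, 0.222 and 0.532 at nodes 1, 2 and 3 in the 27 genes. Over the 13443 genes it was 0.308, 0.233 and 0.392.

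The second group held 6 genes that reached 1 RPKM outside inflorescences, with node 2 values at least 2 times every tendril and leaf value. Gene 100259428 was the most abundant of the 27, with 95.9, 158.5 and 68.7 RPKM in 06C021V0046 and 72.3, 142.1 and 93.4 RPKM in 06C008V0003. Its leaf pools had 69.0 and 38.2 RPKM, and its tendrils 53.6, 32.2 and 45.2 RPKM, so the tendril and leaf values overlapped and all lay below the node 2 values. It was just inside the rule, and met it by quantile normalization but not by median-ratio scaling.

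LOC100248222 had 10.5, 18.9 and 6.41 RPKM in 06C021V0046 and 15.9, 32.7 and 13.5 RPKM in 06C008V0003, higher in the second line at each node. It was low in tendrils, at 0.616, 1.23 and 0.140 RPKM, and stood at 2.60 and 2.55 RPKM in the leaf pools. LOC100254283 had 3.86, 12.7 and 3.88 RPKM with level sides in the first line, and 3.77, 21.3 and 11.3 RPKM in the second. Its tendril values, 0.697, 0.843 and 0.660 RPKM, were all below its leaf values of 3.68 and 3.92 RPKM.

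The remaining genes of this group had node 2 means of 20.3 ± 2.30 RPKM (LOC100256562), 13.1 ± 3.10 RPKM (LOC100254655) and 10.6 ± 4.82 RPKM (gene 100248782), each SD over the lines (n = 2). LOC100254655 was low in tendrils, at 0.516 ± 0.292 RPKM (SD, n = 3), and had 2.07 ± 0.284 RPKM in leaf pools (n = 2). Gene 100248782 had about the same level in both organs, 1.05 ± 0.180 and 1.11 ± 0.215 RPKM, and LOC100256562 had 3.42 ± 1.75 and 6.78 ± 1.56 RPKM. The SD over tendrils also holds differences between nodes.

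**Figure D3:**
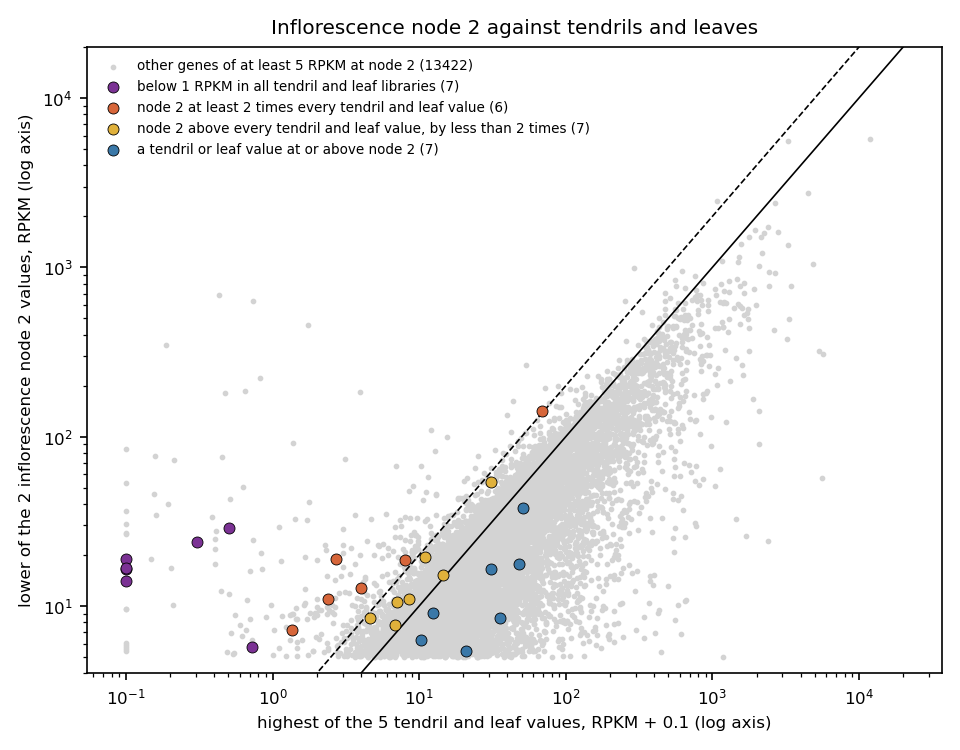
Lower of the node 2 values of the lines (RPKM, log axis) against the highest of the 5 tendril and leaf values (RPKM + 0.1, log axis) for the 27 genes in colour and the other 13422 genes of at least 5 RPKM at node 2 in grey, with equality as a solid line and 2-fold as a dashed line. Of the coloured points, 13 lie on or above the dashed line and 7 below the solid line.

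The third group, 7 genes, was highest at node 2 by less than 2 times the highest tendril or leaf value. LOC100253252 was the most abundant of them, with 32.2, 53.7 and 20.0 RPKM in 06C021V0046 and 33.2, 55.4 and 32.0 RPKM in 06C008V0003. Its leaf and tendril values lay close together, between 21.1 and 30.7 RPKM. LOC100259856 had 11.9, 21.4 and 3.23 RPKM, then 10.5, 19.6 and 8.61 RPKM. It had 5.91 and 10.9 RPKM in the leaf pools but 0.432, 0.175 and 1.41 RPKM in the tendrils, on 10, 3 and 50 reads.

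MYB60 had a low and shallow peak, with 6.08, 9.45 and 4.75 RPKM in 06C021V0046 and 4.68, 7.70 and 4.31 RPKM in 06C008V0003. The leaf pools had 6.73 and 6.13 RPKM, above the inflorescences of node 1. Tendrils of nodes 1 and 3 had 3.64 and 6.39 RPKM, whereas the node 2 tendril had 0.561 RPKM on 4 reads. The node 2 inflorescences were the highest of the 11 libraries, by 1.14 times over the nearest leaf value. MYB60 met the rule by neither scaling. Of the 11 measured MYB genes with a name, MYB60 was the only one to meet the rule in either line. A list of 27 flavonoid and proanthocyanidin genes, matched by symbol, holds these same 11 MYB genes, and no other gene of it met the rule. With 0.827% and 0.318% of all genes meeting it in the lines (06C021V0046 first), nothing is read from counts in lists this short.

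The other genes of this group differed in how far node 2 stood above tendrils. Gene 100241095 had 15.2 and 18.8 RPKM at node 2 and up to 14.5 RPKM in tendrils. LOC100254795 and LOC100256903 had node 2 means of 12.5 ± 2.16 and 12.5 ± 2.81 RPKM (SD, n = 2), with 7.22 ± 1.05 and 5.51 ± 1.24 RPKM in tendrils (n = 3). LOC100254406 had 9.28 ± 1.06 RPKM at node 2, 2.59 ± 1.15 RPKM in tendrils and 3.86 ± 0.912 RPKM in leaf pools.

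The fourth group held 7 genes whose highest value was in a tendril or a leaf pool. LOC100256431 stood at 17.7 and 19.8 RPKM at node 2 and at 25.3 to 47.8 RPKM in all 5 tendril and leaf libraries. LOC100252564 reached 16.6 and 17.5 RPKM at node 2 and 30.7 and 30.2 RPKM in the leaf pools. LOC100247039 had 9.07 and 8.51 RPKM at node 2 against 29.2 and 35.2 RPKM in tendrils of nodes 1 and 3, and gene 100259108 had 5.41 and 5.65 RPKM against 15.7 and 20.7 RPKM. LOC100251279, LOC100264925 and LOC100245028 reached 50.6, 12.3 and 10.2 RPKM in a tendril, above their node 2 values of at most 41.5, 11.7 and 7.39 RPKM. None of these 7 genes met the rule by either scaling, whereas all 13 genes of the first and second groups met it by at least 1 scaling, and 10 of the 13 by both.

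The rule was then applied to the tendrils, whose values it had not used, with 1 library at each node. A tendril peak needs at least 5 RPKM at node 2. Of the 10 genes at that level only LOC100252564 had one, with 8.48, 12.8 and 5.99 RPKM at tendril nodes 1, 2 and 3, where 14.1% of 13326 genes did. Its call rested on 50, 56 and 54 reads in libraries of unequal depth.

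The opposite course was more common among them. Of the 12 genes with at least 5 RPKM in the tendrils of nodes 1 and 3, 5 had both values at least 1.5 times that of node 2, against 13.1% of 12277 genes, by a rule chosen after the data had been seen. These were LOC100251279 (31.6, 13.5 and 50.6 RPKM), LOC100247039 (29.2, 11.1 and 35.2), gene 100259108 (15.7, 6.51 and 20.7), LOC100245028 (10.2, 2.49 and 7.79) and gene 100241095 (14.3, 8.91 and 14.5). All of them have their highest inflorescence value where the tendril value is lowest. LOC100247039 and gene 100259108 had similar profiles over the 11 libraries (r = 0.972 on log2(RPKM + 1), a description). The node 2 tendril library was the shallowest of the series, at 7.36 M reads, and its part in these values was not tested.

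Tendrils were compared with leaf pools by limma on log2(RPKM + 1), over 19761 genes, with Benjamini-Hochberg adjustment over all of them. This contrast uses no inflorescence value for its difference, although inflorescences lend to its estimate of the spread. All 27 genes passed the filter on low values, but the 7 of the first group passed it through inflorescences alone and were under 1 RPKM in both organs compared, so they are left out of what follows. Of the other 20, LOC100264925 was higher in tendrils, where 2.35% of all genes tested were, and LOC100259856 and LOC100252564 were lower, where 8.48% were. At an unadjusted p under 0.05 there were 9 of these 20, where 5080 of all 19761 genes tested were, in either direction.

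LOC100259856 fell by 2.51 ± 0.43 (SE) on the log2 scale from leaves to tendrils (limma, adjusted p = 0.00618), and every tendril value lay below both leaf values. Fitted without the inflorescence libraries, its adjusted p was 0.0766, and it kept its call in the other 18 settings. LOC100252564 fell by 1.70 ± 0.36 (limma, adjusted p = 0.0172), from 30.5 ± 0.360 RPKM in leaf pools (SD, n = 2) to 9.09 ± 3.45 RPKM in tendrils (n = 3), also without overlap. It lost its call in 6 of 19 settings, with adjusted p up to 0.146. LOC100264925 was higher in tendrils by 1.19 ± 0.32 (limma, adjusted p = 0.0421), at 12.3, 10.4 and 9.43 RPKM against 3.47 and 4.81 RPKM in leaf pools. Its call was lost in 12 of 19 settings, with adjusted p up to 0.244.

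LOC100254283 lay at an adjusted p of 0.0503 in the same limma fit, with a log2 difference of -1.47 ± 0.41 (tendril minus leaf). MYB60 differed by -0.98 ± 0.54 (limma, adjusted p = 0.3). Where the tendril of node 1 or that of node 3 is left out, the slope on node makes the tendril mean the node 2 library alone. For MYB60 that library, with its 4 reads, differed from the leaf pools by -2.25 (adjusted p = 0.0119 and 0.0120), which says nothing of the tendrils of nodes 1 and 3. Among the other MYB genes, MYB4B was called higher in tendrils (17.7 to 25.7 RPKM against 6.78 and 9.52 in leaf pools) and MYB30 lower (6.01 to 10.02 RPKM against 19.4 and 28.2). With plant line as a block, LOC100259856 was the only one of the 27 called.

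**Figure D4:**
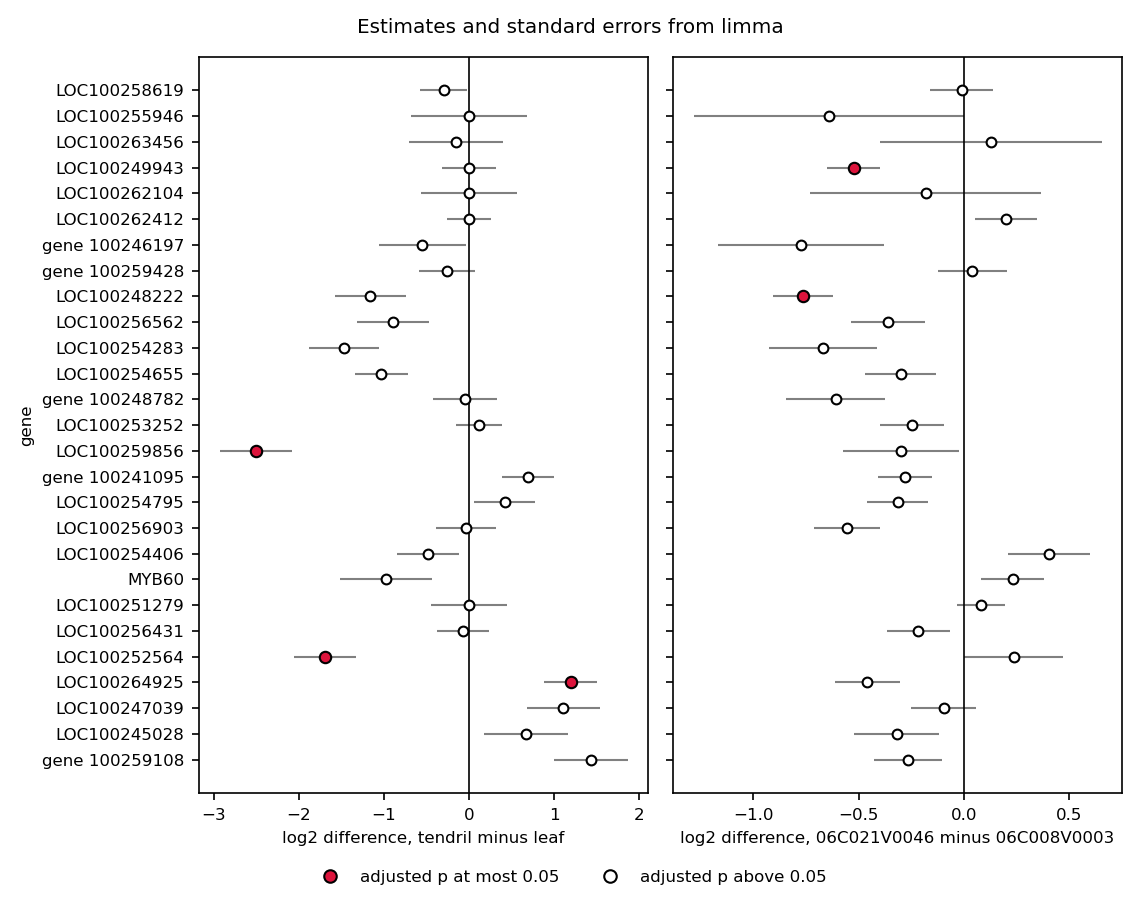
Estimated log2 differences on log2(RPKM + 1) with standard errors from limma for the 27 genes, tendril minus leaf (left, 3 and 2 libraries) and 06C021V0046 minus 06C008V0003 in inflorescences (right, 3 libraries each), with adjusted p of at most 0.05 in red. On the left LOC100259856 and LOC100252564 lie below 0 and LOC100264925 above it, and on the right LOC100248222 and LOC100249943 lie below 0; the 4 genes at exactly 0 on the left had no tendril or leaf read.

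The levels of the lines were compared in the 6 inflorescence libraries with node as a factor, which leaves 2 residual degrees of freedom. The rule did not set the lines against each other, but it chose genes with a like course in both from these same values, which can lower their residual and make their p-values too small. The calls are therefore given as a description, and nothing is read from their number. None of the 27 was called higher in 06C021V0046, where 8.76% of all genes tested were, and 2 were called higher in 06C008V0003, where 10.9% were. At an unadjusted p under 0.05 there were 6 of the 27, all higher in 06C008V0003. Of all 19761 genes tested, 7765 were under that p, in either direction, and nothing is read from this comparison either. The median log2 difference (06C021V0046 minus 06C008V0003) was -0.28, against -0.11 over all genes tested.

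LOC100248222 was higher in 06C008V0003 at each of the 3 nodes, with a log2 difference of -0.76 ± 0.14 (limma, adjusted p = 0.0179). LOC100249943 was also higher there at each node, by -0.52 ± 0.13 (limma, adjusted p = 0.0343). The call of LOC100248222 was lost in 5 of 11 settings and that of LOC100249943 in 9, the adjusted p reaching 0.105 and 0.168. Leaving out either node 1 library takes node 1 out of the comparison of the lines and leaves 1 residual degree of freedom. Of the 27 genes, 6 were then called higher in 06C008V0003, where 1099 or 1097 of all 19761 genes tested were. Among the 6, 5 had not been called with all libraries, namely gene 100246197, gene 100248782, LOC100254283, LOC100255946 and LOC100262104. These calls too are a description.

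In the gene order of the reference table, 22 of the 27 genes could be placed. None of their 44 direct neighbours, of which 39 were measured, is one of the 27. LOC100251279 and LOC100256431 have only LOC100247970 between them. That gene did not peak at node 2: it had 27.9, 187 and 360 RPKM at nodes 1, 2 and 3 in 06C021V0046 and 2.75, 195 and 417 RPKM in 06C008V0003, with at most 0.547 RPKM in tendrils and leaves. Gene order is from that assembly, and the build behind the deposited values is not given in the sources used here.

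Among genes with a name, only 1 other was found in either line's list. PLD, a phospholipase D that cleaves membrane lipids, met the rule in 06C008V0003 alone, with 170, 268 and 135 RPKM at nodes 1, 2 and 3. In 06C021V0046 it had 231, 268 and 140 RPKM, short of the ratio at node 1, and in tendrils and leaves 241 to 537 RPKM. None of the 16 floral and flowering genes, 30 transporter genes, 22 defence genes or 6 hormone genes with a name met the rule in either line. Of all genes, only 0.827% met it in 06C021V0046 and 0.318% in 06C008V0003, so nothing is read from these counts.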

How the data were processed

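The authors deposited 1 table per library with an RPKM value for each gene. Bowtie 0.12.7 and TopHat 1.2.0 are named in the submitters' processing notes, and the genome build, annotation and counting tool are not given in the sources used here, nor is how reads shared by near-identical or overlapping genes were counted. From the deposited RPKM, read depth was worked back from the value of 1 read. Every value of the 24365 genes that were not 0 throughout fell within 0.01 of a whole read number, with the smallest numbers that suit a gene taken. Intervals are 95% exact counting intervals and floors are 3 reads, both for counting error only.

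The selection rule was applied to the RPKM as deposited. The members, lists and tests were chosen with earlier results of these data known. Differences were tested with limma (3.58.1; R 4.3.3) fitted to log2(RPKM + 1), a scale that understates changes of low genes, over 19761 genes with at least 1 RPKM in at least 2 libraries, with a variance trend, two-sided tests and Benjamini-Hochberg adjustment at 0.05. Tendrils and leaf pools were compared in a fit of all 11 libraries (3 inflorescence node means, a tendril mean with a linear slope on node, a leaf mean), and picovine lines in the 6 inflorescence libraries. The labels name no separate plants, so p-values measure the spread between these samples, which may be technical in part.

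Genes were named by rule: those with a name, the 10 highest at node 2, the 10 with the largest peak, the called genes, those with a tendril peak and the 3 on either side of the limit; the others are named because each of the 27 is accounted for. Across genes, the difference between the picovine lines correlated at 0.614, 0.532 and 0.666 between pairs of nodes, so libraries of a line deviated together, and plant line was the block of the paired fit. Alternatives were other pseudocounts (0.1 and 5), no filter, quantile and median-ratio scaling, other limits of the rule, and each library left out. Promoter motifs and protein families are not analysed here.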

Additional observations from a re-analysis of the deposited data

Results flagged for a closer look

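The genes with their highest inflorescence value at node 2 in both picovine lines included 5 whose tendril value was lowest at node 2, at least 1.5 times below both tendril neighbours: LOC100251279, LOC100247039, gene 100259108, LOC100245028 and gene 100241095. They are given for a closer look because their values run in opposite directions along the nodes of inflorescences and of tendrils; the first direction was set by the selection rule and the second by a rule chosen after the data had been seen, so the count supports nothing by itself. The difference between the organs was not tested, each tendril node had 1 library, and the count of tendril dips among the 27 was 4 with a ratio of 2, 5 with median-ratio scaling and 6 with quantile normalization. None of the 5 genes met the inflorescence rule after either scaling.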

How the results depend on the processing

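The number of genes that met the rule depended on its limits and on the scaling. It was 3 with a ratio of 2, 77 with a minimum of 1 RPKM, 19 with a minimum of 10 RPKM, 16 with quantile normalization and 16 with median-ratio scaling, and 82 to 213 with 1 line left out. Genes of the 27 called higher in tendrils than in leaf pools numbered 1, but 2 with quantile normalization or median-ratio scaling and 0 with no filter on low values, with only the 5 tendril and leaf libraries, with plant line as the replicate block or with a linear slope on inflorescence node, and 0 to 3 with 1 library left out. Those called lower numbered 2, but 4 with a pseudocount of 0.1, 0 with only the 5 libraries, 1 with the replicate block, and 1 to 3 with 1 library left out. In the 06C008V0003 direction 2 were called, but 0 with no filter, 1 with either scaling, and 0 to 6 with 1 library left out. For the picovine lines, no further paired analysis was possible because line was itself the comparison and node was already a factor. A tendril peak was found in 0 genes with a ratio of 2 and in 2 with a minimum of 1 RPKM. Node 2 values above every tendril and leaf value, without the 2-fold margin, were found in 20. No difference of a called gene changed sign under the alternatives run. Without the tendril of node 1 or 3, the tendril mean is the node 2 library alone, and without an inflorescence library the lines are compared at the other nodes only. The causes of the other changes were not tested. Depth limits genes near the floor: 3 reads on a gene of 1 kilobase came to 0.198 to 0.408 RPKM, and some node 1 and tendril values rest on few reads.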
